A study of Mus musculus with 6 samples.

Results

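The actin family of the mouse was followed in cultured aortic vascular smooth muscle cells: the muscle isoforms Acta2, Actg2, Acta1 and Actc1 and the cytoplasmic isoforms Actb and Actg1. These 6 genes were taken by symbol from a table of 22482 protein-coding genes, and 5 of them were expressed highly enough to be tested among 11612 genes; Actc1 was not. RNA freed of ribosomal RNA was sequenced from 3 libraries labelled Myocd knockdown and 3 libraries labelled control. All came from C57BL/6 aortic cells grown with 10% serum. The knockdown label stands for cells given an adenovirus against Myocd for 48 h. The control label stands for cells given a negative control adenovirus over the same time, but the design text of the series names wildtype cells instead, so it is not certain that both groups met a virus. Whether a group's libraries came from separate cultures or animals is not stated, so the p-values rest on the variation among libraries, part or all of which may be technical.

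Actins are the building blocks of the thin filaments on which myosin pulls. Vertebrate cells make a set of near-identical isoforms from separate genes. Actb and Actg1 encode the beta and gamma cytoplasmic actins found in nearly every cell. Acta2 encodes the alpha-actin of vascular smooth muscle, Actg2 the gamma-actin of enteric smooth muscle, Acta1 the alpha-actin of skeletal muscle and Actc1 that of cardiac muscle. Serum response factor (SRF) binds CArG boxes in the promoters of many actin genes. The coactivator myocardin, the product of Myocd, works with SRF on smooth muscle genes, and related cofactors respond to the pool of unpolymerised actin.

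Myocd went against the labels. Its level in FPKM, a fragment count scaled to transcript length and library depth, was 132, 130.1 and 146 in the libraries labelled knockdown, against 0.0355, 0 and 0.125 in those labelled control. The libraries are therefore named by their labels throughout, and "higher" means higher in the libraries labelled knockdown, where Myocd was high. Depth over the coding table was 7528170 to 9117649 recovered fragments in the libraries labelled knockdown and 9303510 to 9793781 in those labelled control. The defining contractile marker Myh11 was near 0 in both groups (0.0604 ± 0.0287 against 0.0132 ± 0.0130 FPKM, SD, n = 3 each), and Cnn1 averaged 0.275 and 0.0270 FPKM. Smtn (56.5 against 57.6 FPKM) and Mylk (7.74 against 7.31 FPKM) were present in both groups. So were Krt19 (232 against 256 FPKM) and Msln (80.0 against 75.9 FPKM), which were listed as mesothelial markers. The other 4 listed mesothelial genes, Upk3b, Wt1, Lrrn4 and Upk1b, had means of up to 0.517 FPKM in the libraries labelled knockdown, against up to 0.473 FPKM in those labelled control. The summed smooth muscle list spanned 66.4 to 77.8 FPKM in the libraries labelled knockdown and 58.4 to 74.3 FPKM in those labelled control. Most of this sum came from Smtn. Of 4 tested members 1, Lmod1, was called higher (0.733 against 0.0774 FPKM). Lmod1 passed the filter on low values only through the libraries labelled knockdown. Tagln averaged 7.52 ± 1.77 and 0.637 ± 0.887 FPKM and was not called (limma adjusted p = 0.0555). The endothelial list summed to 1.30 to 2.43 FPKM in the libraries labelled knockdown and 0.447 to 1.01 FPKM in those labelled control, with Vwf, its 1 tested member, called higher (1.24 against 0.185 FPKM). Vwf passed the filter on low values only through the libraries labelled knockdown. The untested members were all low. The means of Pecam1 (0.262 against 0.307 FPKM), Cdh5 (0.113 against 0.163 FPKM) and Kdr (0.0181 against 0.0256 FPKM) were not higher there. Those of Tek (0.0502 against 0.0369 FPKM) and Cldn5 (0.0559 against 0.0248 FPKM) were higher. No member of the fibroblast, leukocyte or mesothelial lists was called. The fibroblast list summed highest, at 372 to 410 FPKM in the libraries labelled knockdown and 357 to 377 FPKM in those labelled control. Most of it came from Col3a1 (222 against 219 FPKM) and Pdpn (105 against 85.4 FPKM), while Lum was near 0 in both groups. The part of other cells in the results below was not tested. An earlier analysis of these files found the replicate 3 library of each group to stand apart from the rest, and values without both are given where they change a result. In bulk RNA, more cells expressing a gene and more RNA per cell cannot be told apart.

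Promoter sequence was at hand for 4 of the 6 genes, from RefSeq on GRCm38.p6, and is shown because the CArG box is the element that the actin promoters are known to share. The 250 bases before each annotated start are printed 5′ to 3′ on the gene's own strand. Capitals mark CArG boxes, CArG-like sites with 1 mismatch in the core, and the TATA motif. The Acta2 window belongs to a start site inside the RefSeq span of the gene.
Acta2, chr19:34255374-34255623, minus strand: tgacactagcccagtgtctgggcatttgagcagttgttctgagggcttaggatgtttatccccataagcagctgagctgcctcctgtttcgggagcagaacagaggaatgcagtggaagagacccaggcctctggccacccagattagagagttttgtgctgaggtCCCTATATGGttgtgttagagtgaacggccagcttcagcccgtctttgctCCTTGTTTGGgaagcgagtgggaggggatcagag
Acta1, chr8:123894776-123895025, minus strand: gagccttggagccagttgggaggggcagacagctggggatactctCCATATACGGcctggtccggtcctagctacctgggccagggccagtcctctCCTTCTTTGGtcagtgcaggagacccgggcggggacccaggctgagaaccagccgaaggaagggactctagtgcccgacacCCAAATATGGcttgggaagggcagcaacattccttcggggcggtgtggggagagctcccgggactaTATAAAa
Actc1, chr2:114052876-114053125, minus strand: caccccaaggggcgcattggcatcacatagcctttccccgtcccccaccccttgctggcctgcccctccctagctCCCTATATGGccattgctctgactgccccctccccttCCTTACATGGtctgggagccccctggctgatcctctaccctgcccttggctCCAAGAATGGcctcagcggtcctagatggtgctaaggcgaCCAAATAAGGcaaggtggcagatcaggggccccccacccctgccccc
Actg1, chr11:120348496-120348745, minus strand: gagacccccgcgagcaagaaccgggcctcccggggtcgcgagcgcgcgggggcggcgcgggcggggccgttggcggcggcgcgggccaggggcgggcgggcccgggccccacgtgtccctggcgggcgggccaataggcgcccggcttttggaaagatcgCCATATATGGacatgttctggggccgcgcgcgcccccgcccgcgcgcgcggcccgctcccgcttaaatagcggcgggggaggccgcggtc

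The CArG box reads the same on both strands as a pattern, so 1 search covers them. Counting back from the annotated start, an exact CArG box lay at -73 to -64 in Acta1, at -47 to -38 in Actc1 and at -90 to -81 in Actg1. Acta2 held no exact box in this window but CArG-like sites at -84 to -75 and -34 to -25. Acta1 had CArG-like sites at -205 to -196 and -154 to -145, and Actc1 had them at -175 to -166, -138 to -129 and -87 to -78. An exact box occurred in 1.63% and a CArG-like site in 8.50% of all 32851 RefSeq windows, which also take in a short stretch after each start. TATAAA, searched on both strands and present in 13.6% of windows, lay at -7 to -2 in Acta1 and at 34 to 39 after the annotated start in Actc1. The GC content of the printed stretches was 53.6% in Acta2, 61.2% in Acta1, 63.6% in Actc1 and 79.2% in Actg1. A match describes the letters in this window and is not evidence of binding.

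Of the 5 tested actins 4 rose in the libraries labelled knockdown and none fell, at a limma p adjusted by Benjamini and Hochberg over all tested genes of under 0.05; the remaining one, Actg1, did not pass. Acta1 and Actg2 met the filter of 0.5 FPKM in 3 libraries only through the libraries labelled knockdown, so the count of 4 is a description and not support for a shared direction. Of all tested genes 3.44% were called, 1.83% higher and 1.61% lower. The muscle isoforms changed by far more than the cytoplasmic ones: log2 fold changes were 2.34 for Acta2, 4.79 for Actg2 and 5.84 for Acta1, against 0.22 for Actb. The median log2 fold change over all tested genes was -0.01.

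Acta2 (ENSMUSG00000035783; chromosome 19, 34240336 to 34255585, minus strand) is the actin by which vascular smooth muscle is usually recognised. It measured 346, 332 and 342 FPKM in the libraries labelled knockdown, against 63.1, 67.1 and 71.5 FPKM in those labelled control. The groups lay far apart, and the spread within each was small, with a coefficient of variation of 2.11% and 6.18%. Behind these values stood 5946, 5609 and 4942 recovered fragments in the libraries labelled knockdown, against 1173, 1181 and 1285. In the main limma fit Acta2 had the smallest p of all 11612 tested genes (log2 fold change 2.34, 95% interval 2.22 to 2.46, limma adjusted p = 4.40e-06). Ranked by mean FPKM among all genes, it stood at place 167 in the libraries labelled knockdown, against place 1091 in those labelled control. Every alternative fit kept the call of Acta2, but not all kept its first place. EdgeR gave Myocd a smaller adjusted p (2.71e-12, against 2.61e-11 for Acta2). Limma without trend gave Actg2 a smaller one (2.31e-04, against 3.11e-04 for Acta2).

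Actg2 (ENSMUSG00000059430; chromosome 6, 83512909 to 83536251, minus strand) is typical of gut and other visceral smooth muscle. Its level was 15.8, 14.2 and 16.4 FPKM in the libraries labelled knockdown, against 0.454, 0.399 and 0.538 FPKM in those labelled control. All libraries labelled knockdown were higher, and those labelled control were near the limit of measurement, with 6, 2 and 5 fragments against 188, 169 and 170. The fold change in limma was 4.79 on the log2(FPKM + 0.1) scale (95% interval 4.44 to 5.15, adjusted p = 1.89e-05). EdgeR on recovered fragments gave 5.47 (adjusted p = 8.13e-08). Scaled by depth, the ratio of summed fragments was 45, with an exact 95% interval of 26.1 to 85.1 that covers counting error only. The deposited FPKM and fragments did not run in step here: 1 fragment was worth 0.199 FPKM in control replicate 2, against 0.0757 and 0.108 in control replicates 1 and 3.

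Acta1 (ENSMUSG00000031972; chromosome 8, 123891758 to 123894775, minus strand) builds the thin filaments of skeletal muscle. It reached 9.76, 9.93 and 7.91 FPKM in the libraries labelled knockdown, against 0.0694, 0.147 and 0 FPKM in those labelled control. The difference was close to presence against absence, with 130, 130 and 89 fragments against 1, 2 and 0, and a count of 0 is compatible with up to 3 fragments. The depth-scaled ratio of summed fragments was 129, with an exact 95% interval of 43.8 to 629 for counting error. Limma gave a log2 fold change of 5.84 (95% interval 5.01 to 6.67, adjusted p = 9.63e-04), which ranged from 3.25 with a pseudocount of 1 to 7.52 with 0.01. The size thus depended on the pseudocount, while the direction was the same in all 19 alternatives that gave an adjusted p.

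Skeletal markers were looked at beside Acta1. Of 8 markers 3, Myog, Ckm and Myh4, were at 0 in all libraries, 2 were high enough to test, and neither was called. Their summed level was 7.32 to 8.37 FPKM in the libraries labelled knockdown and 7.33 to 8.75 FPKM in those labelled control, most of it from Actn3 (5.90 against 6.31 FPKM). The myogenic factor Myod1 averaged 1.36 ± 0.270 and 0.672 ± 0.302 FPKM (adjusted p = 0.170 in limma).

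Actc1 (ENSMUSG00000068614; chromosome 2, 114047282 to 114052875, minus strand), the cardiac alpha-actin, was barely detected and too low to test. Listed values were 0, 0 and 0.688 FPKM in the libraries labelled knockdown, against 0, 0 and 0.138 FPKM in those labelled control. Only the replicate 3 library of each group held any fragments, 8 in knockdown replicate 3 and 2 in control replicate 3. The groups overlapped, and the depth-scaled ratio of 4.44 had an exact 95% interval of 0.886 to 42.9. No difference was detectable at this depth. Of 8 cardiac markers 2 were tested and neither was called, and Pln was at 0 in all libraries. The list summed to 5.21 to 8.14 FPKM in the libraries labelled knockdown and 8.12 to 9.73 FPKM in those labelled control. The tested genes were Tnnt2 (5.13 against 6.13 FPKM, limma adjusted p = 0.338) and Tnni3 (0.639 against 2.34 FPKM, limma adjusted p = 0.0992). Among the untested, Nppb went the other way (0.458 against 0.0507 FPKM), as did Nppa, Myh7 and Ryr2 at lower means.

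**Figure D1:**
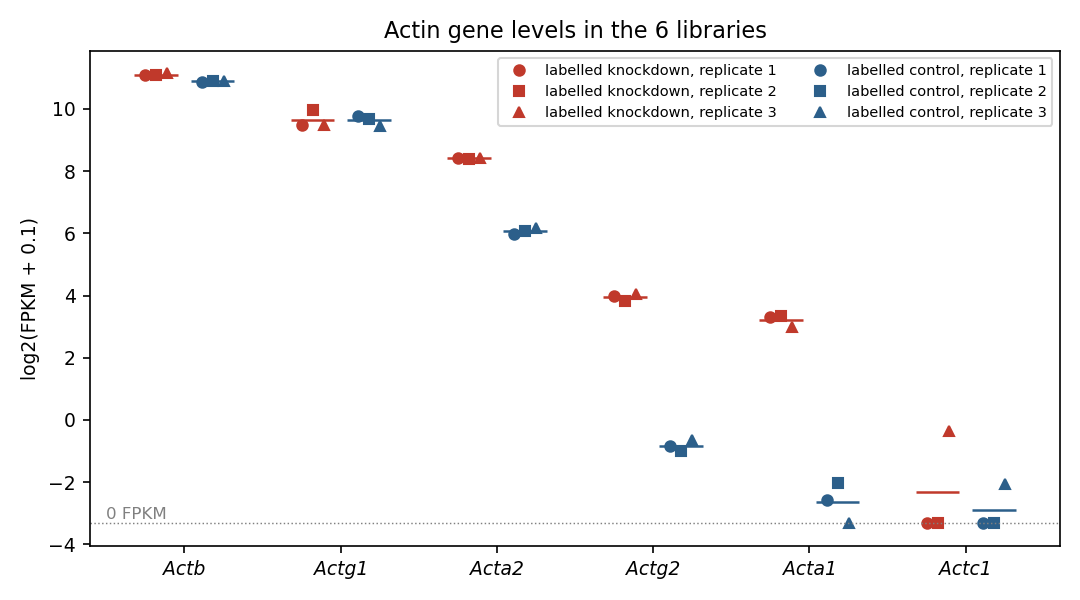
Level of each actin gene in each library as log2(FPKM + 0.1), with libraries labelled knockdown in red to the left of libraries labelled control in blue, and the group mean as a line; the dotted line is 0 FPKM. Acta2, Actg2 and Acta1 are higher in all 3 libraries labelled knockdown, while Actg1 overlaps and Actc1 is above 0 in the replicate 3 libraries only.

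Among the cytoplasmic actins, Actb (ENSMUSG00000029580; chromosome 5, 142903115 to 142907976, minus strand) rose by a small step. It measured 2183, 2161 and 2270.4 FPKM in the libraries labelled knockdown, against 1878, 1890.1 and 1904 FPKM in those labelled control. The groups did not overlap, which was also true of 28.9% of all tested genes, and 13.3% had all libraries labelled knockdown above all labelled control. The log2 fold change was 0.22 (95% interval 0.14 to 0.30, limma adjusted p = 0.0243), a ratio of means of 1.17. On summed fragments the depth-scaled ratio was 1.11, and edgeR gave a log2 fold change of 0.18 (adjusted p = 5.66e-05). The limma call was lost when any 1 of the 6 libraries was left out (adjusted p from 0.0509 to 0.0982) and when both replicate 3 libraries were left out (adjusted p = 0.0543). Actb was among the most abundant messages in both groups, at place 7 by mean FPKM in the libraries labelled knockdown and place 8 in those labelled control.

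Actg1 (ENSMUSG00000062825; chromosome 11, 120345687 to 120348495, minus strand) did not pass. Its values were 712, 994 and 709 FPKM in the libraries labelled knockdown, against 866, 826 and 703 FPKM in those labelled control. The groups overlapped, and knockdown replicate 2 stood above every other library. The log2 fold change was -0.001 with a 95% interval of -0.33 to 0.33 (limma adjusted p = 0.998), so a change in either direction of up to about that size cannot be told from none. Without knockdown replicate 2 the log2 fold change was -0.16 (adjusted p = 0.382).

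Ordered by mean FPKM, a level per length of transcript, the isoforms stood in the same order in both groups. Actb was highest, followed by Actg1, Acta2 and Actg2, and the values of these neighbours did not overlap within either group. In the libraries labelled knockdown Acta1 came next at 7.91 to 9.93 FPKM, clear of Actg2 above and Actc1 below. In the libraries labelled control Acta1 (0 to 0.147 FPKM) and Actc1 (0 to 0.138 FPKM) could not be separated.

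The make-up of the actin pool shifted towards the muscle isoforms. Together the 4 muscle actins made up 11.4%, 10.1% and 10.97% of the summed actin FPKM in the libraries labelled knockdown, against 2.27%, 2.43% and 2.69% in those labelled control. The groups lay apart, with means of 10.8% ± 0.628 and 2.46% ± 0.215 (SD, n = 3 each), a difference of 8.37 percentage points. An exact two-sided permutation test gave p = 0.1, which is as low as 3 against 3 can reach, and 0.175 after Benjamini and Hochberg adjustment over 7 shares. No share could therefore pass a threshold of 0.05 in this design.

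Nearly all of that share was Acta2. It accounted for 10.6%, 9.46% and 10.2% of actin FPKM in the libraries labelled knockdown, against 2.25%, 2.41% and 2.67% in those labelled control. Actg2 made up 0.460% ± 0.0478 and 0.0169% ± 0.00295, and Acta1 0.273% ± 0.0325 and 0.00258% ± 0.00263 (SD, n = 3 each). Both minor isoforms thus stayed under 1 part in 100 of the pool even where they were high. Their rise exceeded that of Acta2: for every 100 FPKM of Acta2 there were 4.55 ± 0.264 FPKM of Actg2 in the libraries labelled knockdown and 0.689 ± 0.0838 in those labelled control, and 2.71 ± 0.352 against 0.109 ± 0.109 FPKM of Acta1. Neither ratio overlapped between the groups (exact permutation p = 0.1 each, adjusted 0.114 over 8 sums and ratios).

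The cytoplasmic isoforms kept the bulk of the pool. Actb held 65.4% ± 3.38 of actin FPKM in the libraries labelled knockdown and 68.6% ± 2.19 in those labelled control, and Actg1 held 23.8% ± 3.95 and 28.9% ± 2.40 (SD, n = 3 each). Both shares were lower on average in the libraries labelled knockdown, but the groups overlapped (exact permutation p = 0.2 each). On the count columns the Actb share was 66.2%, 60.7% and 66.1% in the libraries labelled knockdown, against 66.7%, 67.5% and 70.2% in those labelled control, without overlap (exact permutation p = 0.1). On FPKM its difference was -3.21 percentage points, -1.28 without knockdown replicate 2 and -1.99 without control replicate 3. The Actg1 share was 21.8%, 28.3% and 21.2% in the libraries labelled knockdown, so knockdown replicate 2 lay within the range of the libraries labelled control (26.2% to 30.9%). The ratio of Actb to Actg1 was 3.07, 2.17 and 3.20 in the libraries labelled knockdown and 2.17, 2.29 and 2.71 in those labelled control, and did not separate them (exact permutation p = 0.3).

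**Figure D2:**
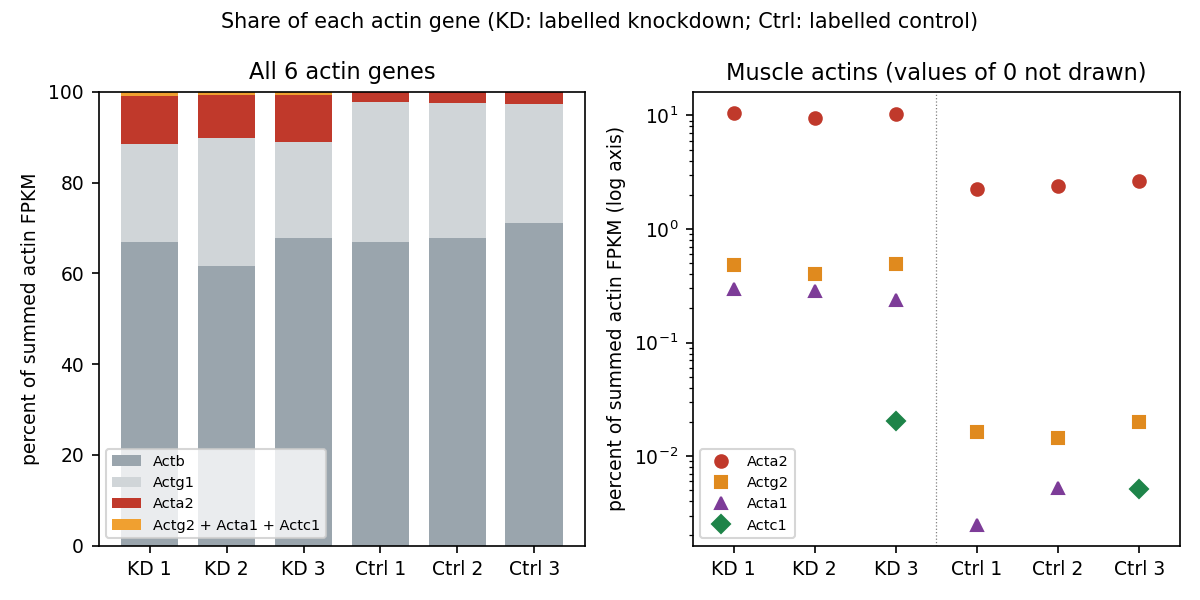
Share of each actin gene in the summed actin FPKM of each library, as stacked bars for all 6 genes (left) and as points on a log axis for the muscle actins (right), with libraries labelled knockdown (KD) left of libraries labelled control (Ctrl). Acta2 takes 9.46% to 10.6% in the libraries labelled knockdown and 2.25% to 2.67% in those labelled control, and Actg2 and Acta1 stay under 1% throughout.

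Total actin message was also higher. The summed level of the 6 genes was 3267, 3512 and 3347 FPKM in the libraries labelled knockdown, against 2808, 2784 and 2679 FPKM in those labelled control. They averaged 3375 ± 125 and 2757 ± 68.6 FPKM (SD, n = 3 each), a ratio of 1.22 without overlap (exact permutation p = 0.1). Of the mean difference of 618 FPKM, Actb supplied 314 FPKM (50.8%) and Acta2 273 FPKM (44.2%), while Actg2, Acta1, Actg1 and Actc1 added 15.02, 9.13, 6.72 and 0.183 FPKM. The 5.06-fold change of Acta2 and the 1.17-fold change of Actb thus made up most of the difference. As a share of all recovered coding fragments, actin made up 0.659% ± 0.0298 and 0.558% ± 0.0168. On these fragments the order of the 2 main parts turned. Scaled by depth, Acta2 rose 5.03-fold (16497 against 3639 summed fragments) and Actb 1.11-fold (108286 against 107866), which made Acta2 the larger part.

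Isoforms this alike raise the question whether fragments were shared out between them. Recovered fragments of Actg2, Acta1 and Actc1 were whole numbers in all 6 libraries, to within 0.000392, while Actb and Actg1, at far higher counts, lay within 0.112 and 0.0418 of whole numbers. Acta2 had a fractional remainder of up to 0.175 fragments. It overlaps AK080187, a noncoding transcript on the same strand, which held 6.14, 2.04 and 7.18 fragments in the libraries labelled knockdown and 1, 1.01 and 0 in those labelled control. Added to those of Acta2, these gave a whole number in every library to within 0.0101. How reads that match several isoforms were placed before counting is not given in the sources used here.

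Few noncoding transcripts are paired with these genes in the lncRNA table, and none was called. AK080187 averaged 0.512 ± 0.298 FPKM in the libraries labelled knockdown and 0.0587 ± 0.0509 FPKM in those labelled control (log2 fold change 1.86, SE 0.55, limma adjusted p = 0.170). As given above, its fragments and those of Acta2 were not whole numbers in every library, but their sums were close to whole. Its log2 fold change was 0.50 with a pseudocount of 1 and 3.30 with 0.01. The antisense transcript AK142426 at Actb, of 1 to 3 fragments per library, averaged 0.870 ± 0.644 and 0.774 ± 0.299 FPKM (adjusted p = 0.987). Without both replicate 3 libraries its log2 fold change was -0.81 (adjusted p = 0.240). The C130080G10Rik transcripts listed as head to head with Actc1, 3 in number, were too low to test; 1 of them held 1 fragment, in knockdown replicate 3, and the others were at or next to 0. Of 4955 tested lncRNA transcripts 4.26% were called.

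Genes with profiles most like those of the called actins were found by the root mean square distance of log2(FPKM + 0.1) over the 6 libraries, centred on the mean of the libraries labelled control. The distance was taken to 11178 genes averaging 1 FPKM or more in a group. Acta2 lay nearest to the chemokine gene Ccl5 (distance 0.11), which averaged 377 ± 39.2 and 73.9 ± 3.89 FPKM, then to Vwf (0.32) and the myosin light chain gene Myl9 (0.39). Actg2 lay nearest to Atf7 (0.88; 3.04 ± 3.04 FPKM in the libraries labelled knockdown, so of wide spread), Acta1 (0.90) and the smooth muscle gene Tagln (1.21). Acta1 had Actg2, Atf7 (1.23) and Tagln (1.88) as neighbours. Near Actb lay Vps41 (0.01) and the ubiquitin gene Ubb (0.02). Tagln averaged 7.52 ± 1.77 and 0.637 ± 0.887 FPKM (limma adjusted p = 0.0555).

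**Figure D3:**
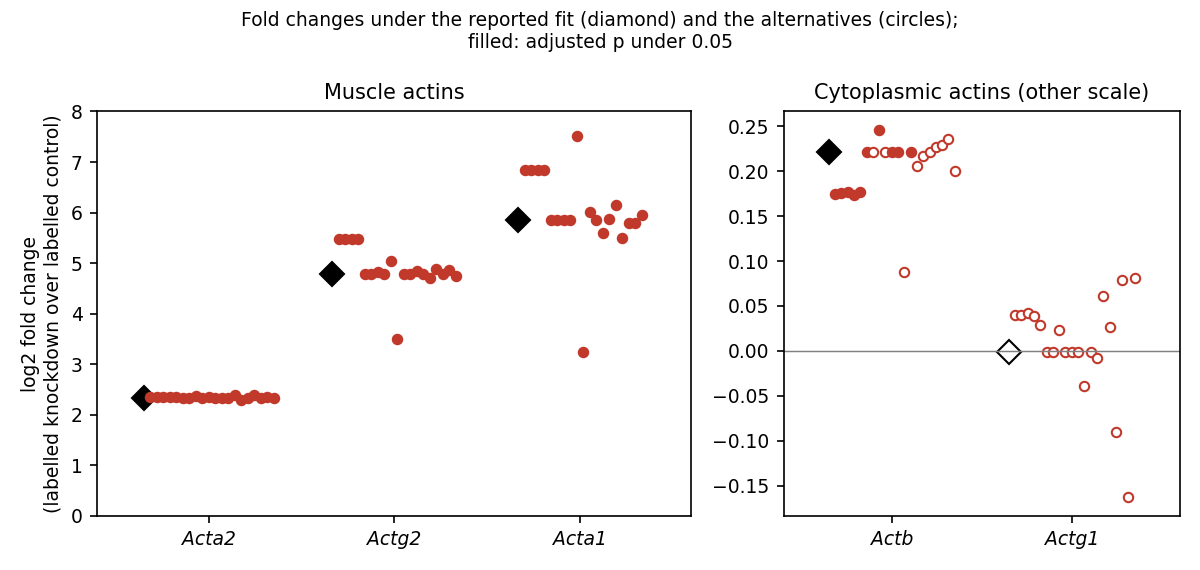
Log2 fold change (libraries labelled knockdown over libraries labelled control) of the 5 tested actins under the reported limma fit (diamond) and under each alternative (circles), filled where the adjusted p is under 0.05; the right panel has its own scale. Acta2, Actg2 and Acta1 are filled throughout, Actb loses its call in 10 of 20 alternatives, and Actg1 lies on both sides of 0 and is never called.

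Proteins that act on actin, together with actin-related proteins, were followed in a list of 93 genes in 6 roles, of which 85 were tested. The whole list is called genes acting on actin for short. In limma 5 rose and none fell (5.88% of the list, beside 3.44% of all tested genes), 31 of the 85 reached an unadjusted p under 0.05, beside 22.4% of all tested genes (2603 of 11612), and the median log2 fold change was -0.01, equal to that of all genes at this precision. EdgeR called 16 higher and 2 lower (Avil and Cct5, named after their values were seen), where it called 9.95% of all genes, 5.45% higher and 4.5% lower. Leaving out 1 library lowered the limma count of higher genes from 5 to 2 (without knockdown 1, knockdown 2, control 1 or control 2), 3 (without control 3) or 4 (without knockdown 3).

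The 5 genes called in limma belonged to filament recycling and to cross-linking, while edgeR also called genes of nucleation and of capping and severing, as given below. Destrin (Dstn), which severs and depolymerises filaments, averaged 219 ± 3.37 and 154 ± 6.13 FPKM (log2 fold change 0.51, SE 0.04, limma adjusted p = 0.00353). Thymosin beta-4 (Tmsb4x), which holds actin monomers in reserve, averaged 183 ± 5.13 and 149.9 ± 4.41 FPKM (log2 0.29, adjusted p = 0.0177). They were 2 of 11 tested genes of monomer binding and recycling, of which edgeR called 5 higher and 0 lower. In limma 7 of the 11 had an unadjusted p under 0.05, beside 22.4% of all tested genes. Profilin 1 (Pfn1, 647 against 678 FPKM, adjusted p = 0.517) and cofilin 1 (Cfl1, 685 against 626 FPKM, adjusted p = 0.112), the most abundant of that role, did not pass in limma. EdgeR called Cfl1 higher (adjusted p = 0.0417) but not Pfn1 (adjusted p = 0.509).

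Of 11 tested cross-linkers and bundlers 3 rose in limma, and edgeR called 6 higher and 0 lower. An unadjusted limma p under 0.05 was reached by 9 of the 11, beside 22.4% of all tested genes. The bundler plastin 3 (Pls3) averaged 157 ± 0.745 and 111 ± 0.342 FPKM (log2 fold change 0.50, SE 0.03, limma adjusted p = 0.00145). Filamin A (Flna), which links crossing filaments into networks, averaged 311 ± 16.7 and 263 ± 3.22 FPKM (log2 0.24, limma adjusted p = 0.0414), a step about as small as that of Actb. The median log2 fold change over the cross-linkers was 0.17, the highest of the 6 roles. It was 0.09 for monomer binding and recycling and 0.04 for capping and severing. Medians lay below 0 for nucleation and elongation (-0.03), actin folding and maturation (-0.08) and actin-related proteins (-0.08).

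In the other roles limma called none: 28 nucleation and elongation genes, 10 capping and severing genes, 18 genes of actin folding and maturation and 7 actin-related proteins, with 5, 3, 6 and 1 at an unadjusted p under 0.05, a level that 22.4% of all tested genes reached. EdgeR called 3, 2, 0 and 0 of them higher and 0, 1, 1 and 0 lower. The Arp2/3 subunits Actr2 (112 against 120.5 FPKM, limma adjusted p = 0.312) and Arpc2 (216 against 199.6 FPKM, limma adjusted p = 0.155) nucleate branched filaments. EdgeR called Arpc2 higher (adjusted p = 0.0336) but not Actr2 (adjusted p = 0.147). Gelsolin (Gsn, 302 against 290.1 FPKM, limma adjusted p = 0.497) severs filaments, and Capg (219 against 203 FPKM, limma adjusted p = 0.161) caps their ends. Of these, edgeR called Capg higher (adjusted p = 0.0435) but not Gsn (adjusted p = 0.268). The chaperonin subunits that fold new actin, Tcp1 (258 against 288 FPKM, limma adjusted p = 0.0605) and Cct2 (236 against 241 FPKM, limma adjusted p = 0.696), did not pass. Neither did the dynactin subunits Actr1a (52.0 against 48.6 FPKM, limma adjusted p = 0.368) and Actr1b (38.8 against 40.9 FPKM, limma adjusted p = 0.364). Actbl2, a beta-actin-like gene named here after its values were seen, was at 0 in all 6 libraries.

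**Figure D4:**
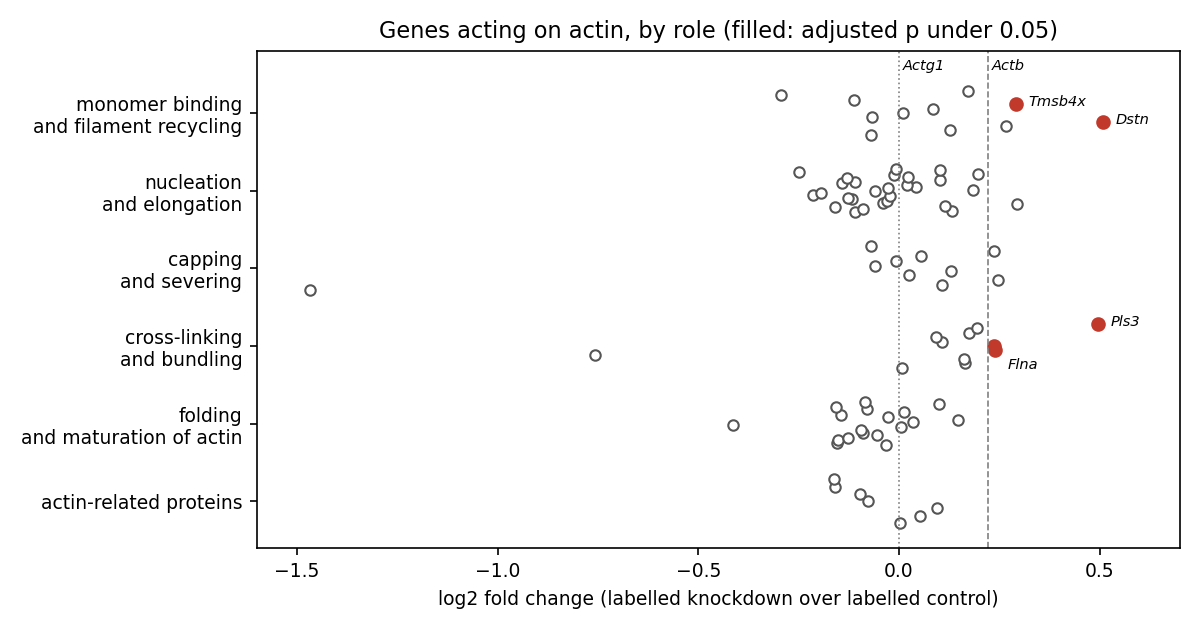
Log2 fold change (libraries labelled knockdown over libraries labelled control) of the 85 tested genes that act on actin or encode actin-related proteins, 1 circle per gene, by role. Filled circles passed an adjusted p of 0.05, and the vertical lines mark Actb (0.22) and Actg1 (-0.001). The 5 filled circles, among them Dstn, Tmsb4x, Pls3 and Flna, lie to the right of Actb, and most others lie around 0.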

How the data were processed

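RNA was sequenced from 6 libraries. Per the submitters' processing notes, the tools were HISAT2 2.0.4, Cuffdiff 2.2.1, cutadapt and Cufflinks. The notes name the builds mm9 and mm10 but not what each served for. For the annotation release and for strand in counting, nothing is given in the sources used here. Per the file headers, the authors deposited FPKM values and counts per gene and per lncRNA transcript. The deposited counts are estimated counts multiplied by 1 constant per library (0.916 to 1.20, the most frequent value above 0), and were divided by it to recover fragments; 89.4% to 90.4% of coding values above 0 then lay within 0.01 of a whole number. Rows of 79 repeated symbols were summed. Gene positions are those of RefSeq on GRCm38.p6, because the table's loci can span several genes.

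The main test was limma 3.58.1 (R 4.3.3) with an intensity trend on log2(FPKM + 0.1), group as the only term, two-sided, on genes with at least 0.5 FPKM (lncRNA transcripts 0.1) in at least 3 libraries. This scale understates the change of low genes. P-values were adjusted by Benjamini and Hochberg over each table, with a threshold of 0.05. Shares, sums and ratios had 1 value per library and an exact two-sided permutation test (scipy 1.17.1). EdgeR 4.0.16 (quasi-likelihood) and DESeq2 1.42.0 ran on rounded fragments as alternatives, next to other pseudocounts, filters and scalings, a replicate block and each library left out. Fits were tested on simulated data. Intervals on fragments cover counting error only.

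The members and lists were chosen with earlier results of these data known. Besides the actins and Myocd, the text names up to 3 called genes of smallest p per role, or with fewer than 3 also the 2 of highest mean FPKM, and the 3 nearest profiles of each called actin; 1 gene that this rule names is not reported here. The listed symbols Diaph1, Diaph2, Diaph3, Pfdn6 and Naa80 were matched through RefSeq synonyms.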

Additional observations from a re-analysis of the deposited data

How the results depend on the processing

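The calls of Acta2, Actg2 and Acta1 kept their direction and their side of the threshold in all alternatives that gave an adjusted p (20, 19 and 19; DESeq2 gave none for Actg2 and Acta1), with log2 fold changes of 2.29 to 2.38, 3.49 to 5.48 and 3.25 to 7.52. Actb kept its direction in all 20 but lost its call without trend (0.22, adjusted p = 0.101), with no filter (0.22, adjusted p = 0.0716), with quantile normalization (0.088, adjusted p = 0.734), without both replicate 3 libraries (0.21, adjusted p = 0.0543) and without any 1 library (0.20 to 0.24). The cause was not tested. Actg1 was called in none (-0.16 to 0.08). On the count columns the share difference was 0.307 percentage points for Actg2 and 0.204 for Acta1, against 0.443 and 0.270 on FPKM, and the ratio of total actin was 1.18 in place of 1.22; the other shares moved by less than their spread.

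Genes acting on actin called higher numbered 14 with DESeq2, 16 with edgeR (TMM, DESeq2 size factors or no filter), 2 without trend and 2 without both replicate 3 libraries, and 2 to 4 without 1 library. Those called lower numbered 2 with edgeR (TMM or DESeq2 size factors) and 1 with edgeR without filter, limma without trend, no filter, quantile normalization or without both replicate 3 libraries, and 0 to 1 without 1 library. Over all genes 400 were called, against 719 with DESeq2, 1150, 1153 and 1168 with edgeR (TMM, DESeq2 size factors, no filter), 144 without trend, 76 without both replicate 3 libraries, an alternative chosen after seeing the data, and 44 to 178 without 1 library. The groups share replicate numbers, but the deviations of same-numbered libraries correlated at only 0.04, -0.004 and 0.10 across genes and not every library correlated best with its own number, so the numbers were not taken as pairs. With the replicate block limma called 243 genes and edgeR 1715 (20 higher and 5 lower among the genes acting on actin); Actb had an adjusted p of 0.0306, and no actin call changed. Control libraries of 0 to 6 fragments limit the size of the Acta1 and Actg2 changes.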
